A study of Danio rerio with 16 samples.

Results

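The gene stm (ENSDARG00000035694) encodes Starmaker, and it is 1 of the 32520 genes counted in a zebrafish testis RNA-seq series. It was chosen from its measured level: in earlier results of these data it stood among the genes with the largest differences between EE2 and control in diploid testes. Its diploid values, and the differences between groups that use them, are therefore given as a description with no test. Starmaker is a secreted, highly acidic protein that zebrafish ear cells release around the growing otoliths, the calcium carbonate stones used for balance and hearing. When the protein is depleted in embryos the stones grow star-shaped, which gave the gene its name, and the protein is often set beside the human dentin protein DSPP. EE2 (17α-ethinyl estradiol) is the synthetic estrogen of contraceptive pills, and in fish it acts through nuclear estrogen receptors, with the yolk precursor genes (vitellogenins) as the usual readout.

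All fish were of the AB strain and all samples were male gonads. The 4 groups were diploid EE2, diploid control, triploid EE2 and triploid control, with 4 libraries each, so the triploid groups differ from the diploid groups in having an extra chromosome set. The EE2 dose, the length of exposure, the age of the fish and the number of fish per library are not given in the sources used here. Nothing in the labels says that the libraries came from separate fish, so p-values measure the spread between these libraries only.

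The libraries held 7052508 to 17369549 assigned read pairs. The title of triploid EE2 replicate 2 calls that library an outlier, so it is not in the fits reported unless named, and its values are given apart. Diploid control replicate 1 also stood apart: over genes, its squared count differences from the other diploid controls were on average 92.01 to 98.74 times those of counting noise, against 10.63 to 24.53 times among the other diploid controls. By this measure it was further from its group than the library titled an outlier, at 46.6 to 54.59 times, yet it stayed in the fits. Its TMM factor, a scaling factor for library size, was 0.7744, against 0.964 to 1.067 in all other libraries. The measure of count differences used total counts without these factors, which the fits do use. How far this library stands apart once they are applied was not tested. The tissue label was checked with the summed level of marker lists in CPM (counts scaled to a common library size with TMM factors): germ cell markers summed to 4699 to 6940 CPM over the 15 fitted libraries, and Sertoli cell markers to 430.9 to 1902 CPM. The germ cell gene ddx4, an RNA helicase, averaged 988 CPM in diploid EE2 testes and 966 CPM in diploid control testes. RNA of other tissue was also present. Exocrine pancreas markers summed to 7307 CPM in diploid control replicate 4 and 5168 CPM in diploid EE2 replicate 1. They summed to 17.2 to 607.3 CPM in the other fitted libraries.

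In the GRCz11 annotation stm lies on the minus strand of chromosome 19, from 3137518 to 3167878, a span of 30361 bases. Its exons merge into 26 blocks with 3344 bases in all. Their median length is 45 bases, and the longest block is the last exon, which holds 1261 bases from 3137518 to 3138778. The plus-strand gene zgc:86598 covers the whole of stm (3135271 to 3234924) and shares 147 exon bases with it on the opposite strand. Read pairs were counted by strand, per the file header.

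stm was abundant in the EE2-exposed diploid testes and scarce in most diploid controls. Diploid EE2 replicates 1 to 4 held 1286, 3934, 3859 and 1104 stm read pairs, or 174, 247, 222 and 130 CPM. Diploid control replicates 1 to 4 held 19, 15, 167 and 25 read pairs, or 3.16, 1.18, 17.9 and 1.78 CPM. The groups did not overlap, and the lowest EE2 library was 7.26 times the highest control. This difference is the one for which stm was chosen. Diploid control replicate 3 was high among the controls, and its 95% Poisson interval, 15.3 to 20.8 CPM, lay clear of the highest bound of the other controls, 4.94 CPM. These intervals cover counting error only.

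The diploid EE2 mean was 193 ± 51.8 CPM, and the diploid control mean was 6.01 ± 7.98 CPM (SD, n = 4 each). In the edgeR fit the log2 change was 5.04 ± 0.81 (SE), a 32.8-fold difference with a 95% interval of 10.9 to 98.5. This change ranked 10 from the top of the 23007 genes tested, of which the median gene changed by -0.01. Its size rested in part on diploid control replicate 3: without it the control mean was 2.04 ± 1.02 CPM (SD, n = 3) and the log2 change was 6.68 ± 0.71. Without diploid control replicate 1 the log2 change was 4.88 ± 0.93.

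**Figure D1:**
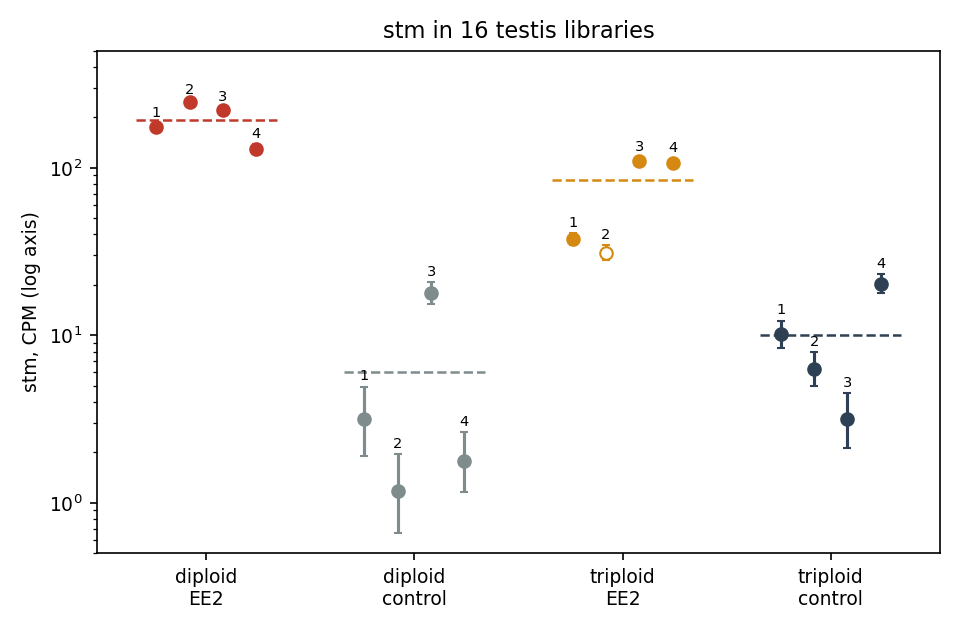
stm level in each of the 16 libraries in CPM on a log axis, by group, with 95% Poisson intervals as bars, replicate numbers above and dashed lines at the group means. The open circle is the triploid EE2 library titled an outlier, which is not in its group's mean. All EE2 libraries lie above the controls of the same ploidy, and diploid control replicate 3, at 17.9 CPM, lies above the other diploid controls.

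Per length of exon, stm ranked among the more abundant genes in diploid EE2 testes and among the rarer genes in most diploid controls. In RPKM (CPM divided by exon length in kilobases) stm averaged 57.8 ± 15.5 in diploid EE2 testes and 1.80 ± 2.39 in diploid control testes (SD, n = 4 each). Diploid EE2 libraries placed it within the top 3.85% to 8.63% of the 23007 tested genes by RPKM. In the diploid controls it came at 51.1% in replicate 3 and at 84.5% to 95.4% in the others.

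In triploid testes the EE2 and control libraries also separated, with a smaller gap. Triploid EE2 replicates 1, 3 and 4 held 544, 1114 and 1053 stm read pairs, or 37.6, 110 and 107 CPM. The library titled an outlier, replicate 2, held 367 read pairs or 31.2 CPM. Triploid control replicates 1 to 4 held 116, 73, 30 and 222 read pairs, or 10.2, 6.32, 3.16 and 20.4 CPM. The groups did not overlap with or without the library titled an outlier, and the lowest fitted EE2 library was 1.85 times the highest control. How many of all genes had groups that did not overlap was not counted, here or in the other comparisons. Triploid EE2 replicate 1 was low in its group, and triploid control replicate 4 was high in its group.

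The triploid EE2 mean was 84.7 ± 40.8 CPM (SD, n = 3), and the triploid control mean was 10.0 ± 7.47 CPM (SD, n = 4). The log2 change was 3.07 ± 0.76 (SE), an 8.41-fold difference with a 95% interval of 2.99 to 23.6, and it ranked 25 from the top of 23007 genes. No test of stm was planned, since the gene was chosen with earlier results of these data known. A test of the triploid comparison was added, and its p-values are a description only. The comparison did not pass, with an adjusted p of 0.324 in edgeR's quasi-likelihood test. The SE and p came from the fit shared with the diploid libraries, so the test is not independent of the choice. With triploid libraries only, the log2 change was 3.07 ± 0.65 and the adjusted p in that test was 0.32. Over 17 alternatives the adjusted p ran between 0.0584, with DESeq2, and 0.703, and none was under 0.05. With the library titled an outlier included, the log2 change was 2.83 ± 0.72 and the adjusted p was 0.184. In RPKM stm averaged 25.3 ± 12.2 in triploid EE2 testes (SD, n = 3) and 2.99 ± 2.24 in triploid control testes (SD, n = 4).

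Ordered by mean level, stm was highest in diploid EE2, then triploid EE2, triploid control and diploid control. The triploid EE2 libraries all lay below the diploid EE2 libraries, but the lowest diploid EE2 value was only 1.19 times the highest triploid EE2 value. The triploid to diploid log2 difference under EE2 was -1.19 ± 0.74 (SE), with a 95% interval of -2.63 to 0.25. Among controls the triploid and diploid ranges overlapped, and the log2 difference was 0.77 ± 0.75, with a 95% interval of -0.71 to 2.25. Both intervals reach past 0, but they take no account of how stm was chosen, so this is not a test. Under EE2 the difference was -1.18 ± 0.39 with EE2 libraries only and -1.31 ± 0.48 in limma-voom. With the library titled an outlier included it was -1.44 ± 0.67, and over 17 alternatives it ran from -1.51 to -0.84. Among controls the difference was 0.17 to 1.43 in 17 alternatives and 2.42 ± 0.65 without diploid control replicate 3.

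The difference between the EE2 changes, triploid minus diploid, was -1.96 ± 1.05 for stm on the log2 scale, with a 95% interval of -4.02 to 0.09. It is given with no p, since the diploid values chose the gene. Without diploid control replicate 3 it was -3.62 ± 0.82, and the triploid to diploid difference among controls was 2.42 ± 0.65, so this single control library moved both. In the other 23 alternatives the difference ran from -2.74 to -1.36. It was -2.74 ± 0.94 in limma-voom and -2.18 ± 1.00 with the library titled an outlier included. Without triploid control replicate 3 it was -2.25 ± 1.04. The intervals of these values take no account of how stm was chosen and are not a test. Over all 23007 genes edgeR called 0 such differences (0%), with 1223 at an unadjusted p under 0.05. DESeq2 called 43 and limma-voom called 0.

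None of the 4 tested genes around stm on chromosome 19 passed the test for EE2, which is near the share of all genes. Over all genes edgeR called 1.94% higher and 0.422% lower in diploids, and 0.0609% and 0.0435% in triploids. The overlapping zgc:86598 averaged 85.8 ± 2.49 CPM in diploid EE2 testes and 85.3 ± 6.70 CPM in diploid control testes (SD, n = 4 each), a log2 change of 0.01 ± 0.09. hsf1, a heat shock transcription factor gene 55250 bases from stm, had log2 changes of 0.16 ± 0.16 in diploids and 0.10 ± 0.17 in triploids. si:ch211-80h18.1, 10228 bases from stm, had -0.14 ± 0.16 in diploids and 0.03 ± 0.17 in triploids. si:ch211-133n4.4, 69912 bases away on the other side, had -0.06 ± 0.47 in diploids and -1.04 ± 0.52 in triploids. Over these 4 genes the adjusted p was 0.631 to 0.979 in diploids and 0.947 to 1 in triploids in edgeR's quasi-likelihood test. The other 3 neighbours, si:ch211-80h18.2, si:ch211-133n4.6 and zgc:158445, were too low to be tested.

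**Figure D2:**
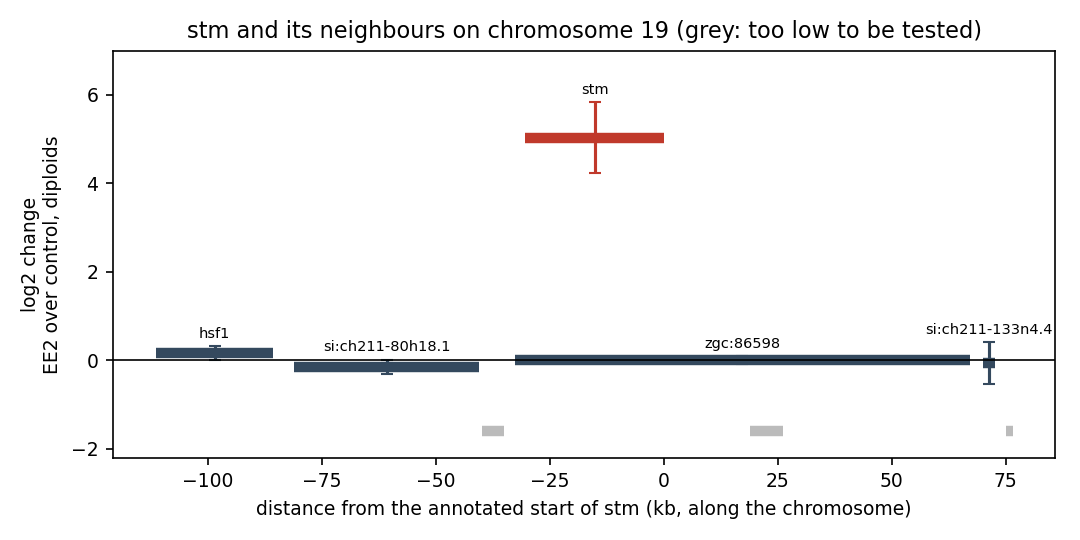
Log2 change of EE2 over control in diploid testes for stm (red) and its neighbours (dark bars), against distance in kb from the annotated start of stm. Bar length is the gene's span and vertical lines are SE. Grey bars mark the 3 genes too low to be tested, drawn at an arbitrary height. stm stands at 5.04 while the 4 tested neighbours lie between -0.14 and 0.16.

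The genes whose pattern over the libraries came nearest to that of stm were sought over the 15 fitted libraries, by the root mean square difference of log2 CPM after centring each gene on its own mean. The 8 nearest of 21445 tested genes with a symbol were si:ch73-27j14.1 (1.12), vtg5 (1.24), the F13A1 gene ENSDARG00000094832 (1.29), aoc1 (1.37), the F13A1 gene ENSDARG00000045453 (1.47), vtg2 (1.496), ntd5 (1.52) and ccdc17 (1.54). The median over all ranked genes was 2.57. They were chosen for their likeness, so their levels are a description, and with the library titled an outlier included, or with a smaller prior count, 6 of the 8 stayed among the nearest 8.

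The nearest gene, si:ch73-27j14.1, was rare but had the same split of groups. It had 5.28, 3.77, 3.45 and 2.24 CPM in diploid EE2 replicates 1 to 4. In the diploid controls it was found in replicate 3 alone, at 0.107 CPM, the same library in which stm was high. It had 0.207, 1.28 and 1.32 CPM in triploid EE2 replicates 1, 3 and 4. In triploid controls it was found in replicates 3 and 4, at 0.105 and 0.183 CPM. Controls this close to 0 give no usable fold change, and 1 read pair in a single control library cannot be told from chance counting.

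Of the other near genes, vtg5, vtg2 and both F13A1 genes were on the estrogen-responsive list given below. That list was drawn up with earlier results of these data known. vtg5 and vtg2 encode vitellogenins, and the F13A1 genes encode copies of the A subunit of coagulation factor XIII, a transglutaminase that cross-links fibrin. aoc1 encodes a copper amine oxidase that breaks down histamine and related amines. It had 6.64, 38.7, 30.9 and 11.4 CPM in diploid EE2 replicates 1 to 4, against 2.66, 0.393, 0.429 and 1.495 CPM in diploid control replicates 1 to 4. Like stm, aoc1 was highest in diploid EE2 replicate 2, with replicate 3 next. ntd5 averaged 293 ± 113 CPM in diploid EE2 testes and 45.2 ± 24.2 CPM in diploid control testes (SD, n = 4 each). ccdc17, which encodes a coiled-coil protein, averaged 2.13 ± 0.59 CPM in diploid EE2 testes and 0.162 ± 0.228 CPM in diploid control testes.

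**Figure D3:**
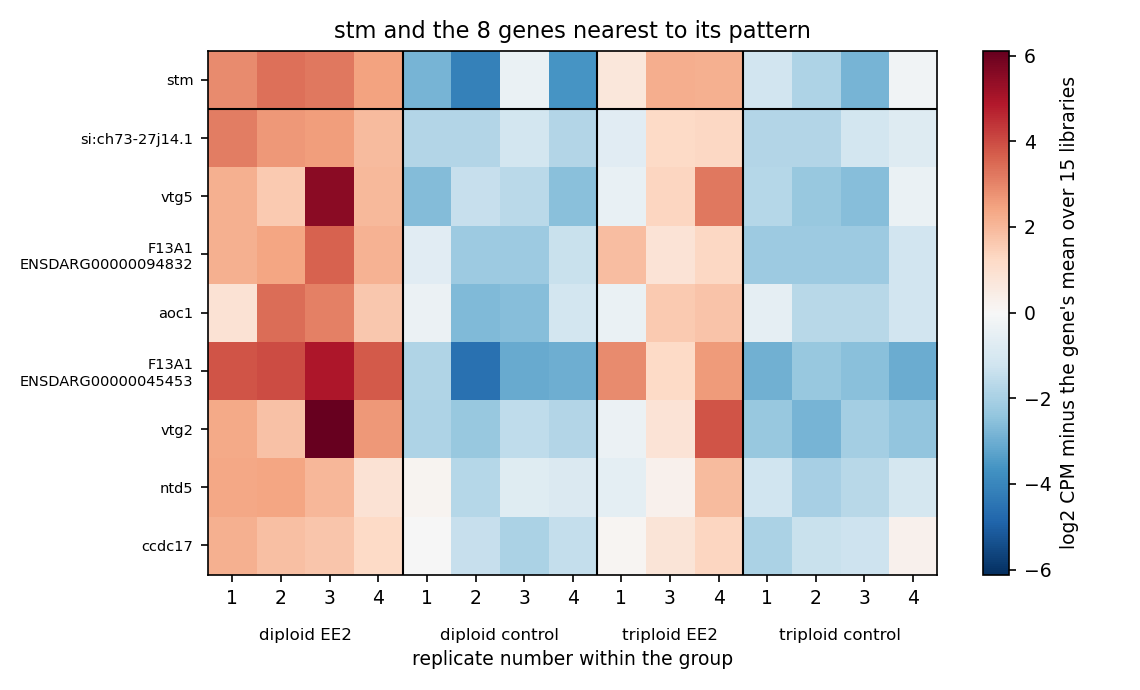
Log2 CPM of stm and the 8 genes nearest to its pattern in each of the 15 fitted libraries, each gene centred on its own mean (red above, blue below). Columns are libraries, by group and replicate number. All 9 genes are above their mean in every diploid EE2 library, and vtg5 and vtg2 stand out in diploid EE2 replicate 3, where stm does not.

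Within the EE2 groups stm and the vitellogenin genes did not take the same order. vtg1, the most abundant vitellogenin per length in diploid EE2 testes, had 137, 90.1, 1222 and 95.8 CPM in diploid EE2 replicates 1 to 4, so replicate 3 was far above the others. stm was highest in replicate 2, where vtg1 was lowest, and its coefficient of variation in diploid EE2 was 26.8%. In triploid EE2 replicates 1, 3 and 4 vtg1 had 17.5, 62.8 and 280 CPM. There stm was low in replicate 1, as vtg1 was, but nearly level in replicates 3 and 4. The library titled an outlier had 72.1 CPM of vtg1.

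**Figure D4:**
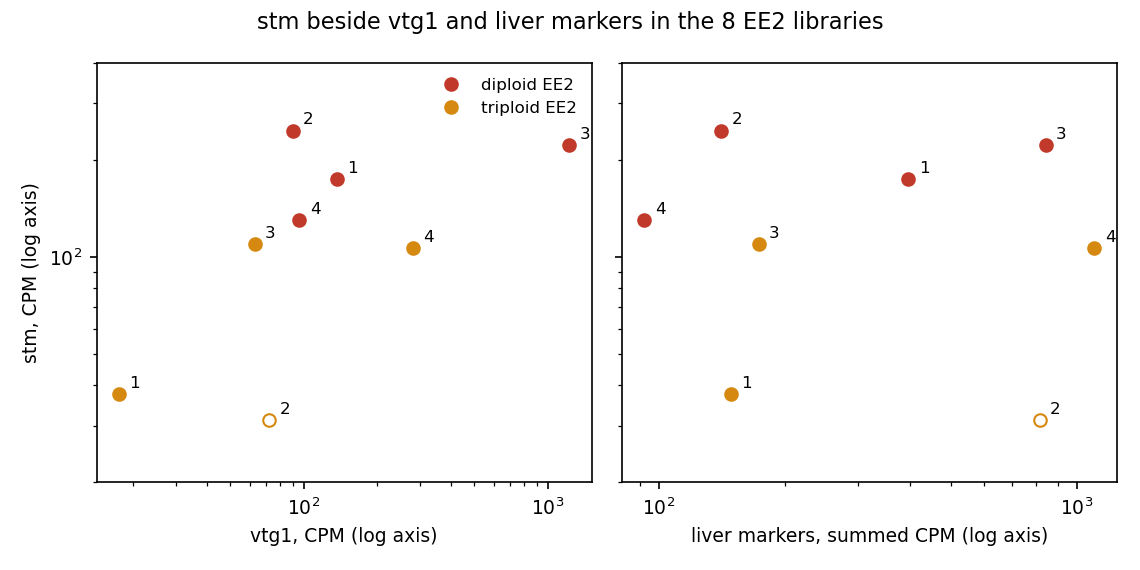
stm against vtg1 (left) and against the summed liver markers (right) in the 8 EE2 libraries, in CPM on log axes, with replicate numbers. Red is diploid EE2, orange is triploid EE2, and the open circle is the library titled an outlier. Diploid EE2 replicate 2 has the highest stm, 247 CPM, with vtg1 at 90.1 CPM and liver markers at 140.7 CPM.

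Few other genes of the otolith and inner-ear matrix differed with EE2. Of 16 listed genes 13 were tested, and in diploids 1 rose and 0 fell, against 1.94% of all genes higher and 0.422% lower. The median log2 change of the list was 0.04, against -0.01 over all genes. The gene that rose was cdh11, a cell adhesion cadherin, at 41.3 ± 11.8 CPM in diploid EE2 testes and 22.9 ± 4.55 CPM in diploid control testes (SD, n = 4 each). Its log2 change was 0.85 ± 0.19, with an adjusted p of 0.0265 in edgeR's quasi-likelihood test. This call was lost without diploid EE2 replicate 1 or 3, without diploid control replicate 2 or 3, with the library titled an outlier included, and in the diploid libraries alone, and over the 8 omissions the adjusted p reached 0.0957.

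In triploids 0 of the 13 otolith genes were called in edgeR, DESeq2 or limma-voom. Over all 23007 genes edgeR called 0.0609% higher and 0.0435% lower, and in either direction DESeq2 called 99 genes and limma-voom called 10. Of the 13, 0 had an unadjusted p under 0.05, and the share of all genes at that threshold was not counted. oc90, the gene of the otolith core protein otoconin-90, averaged 93.8 ± 14.9 CPM in diploid EE2 testes and 92.3 ± 34.1 CPM in diploid control testes (SD, n = 4 each). sparc (osteonectin), a calcium-binding matrix glycoprotein, averaged 212 ± 39.9 CPM in diploid EE2 testes and 177 ± 88.1 CPM in diploid control testes. Their triploid log2 changes were -0.48 ± 0.36 for oc90 and -0.50 ± 0.29 for sparc, and neither passed. otomp, the otolith matrix protein gene, averaged 4.37 ± 0.31 CPM in diploid EE2 testes and 5.18 ± 1.00 CPM in diploid control testes. otop1, a proton channel gene needed for otolith formation, averaged 3.597 ± 1.98 CPM in diploid EE2 testes and 3.59 ± 1.07 CPM in diploid control testes. Per length, stm under EE2 in diploids (57.8 RPKM) was near sparc (58.6 RPKM) and above oc90 (27.2 RPKM), while in diploid controls stm (1.80 RPKM) was far below both (48.9 RPKM for sparc and 26.8 RPKM for oc90).

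Mineralised tissue genes and the kinases of acidic secreted proteins gave few calls. Of 28 mineralised tissue genes 18 were tested, and edgeR called 0 in either ploidy. Over all genes it called 1.94% higher and 0.422% lower in diploids, and 0.0609% and 0.0435% in triploids. Of the 18, 5 had an unadjusted p under 0.05 in diploids and 1 in triploids. How many of all genes had an unadjusted p under 0.05 was not counted for either EE2 comparison. Such counts, here and for the other lists, therefore cannot be set against all genes and only describe each list. Their log2 changes ran from -4.71 to 1.88 in diploids (median 0.01) and from -0.78 to 1.23 in triploids (median -0.03). Triploid minus diploid differences ran from -0.88 to 4.67, with 3 at an unadjusted p under 0.05, against 1223 of all 23007 genes. DESeq2 called 1 of the 18 higher in diploids and 0 in triploids, and limma-voom called 0 in both. Over all 23007 genes, in either direction, DESeq2 called 1207 in diploids and 99 in triploids. The counts in limma-voom were 584 and 10. phospho1 and ankha were named as the most abundant of the list. phospho1, a phosphatase that starts bone mineralisation, had a log2 change of 0.03 ± 0.26 in diploids, and ankha, of the pyrophosphate transporter family, had -0.05 ± 0.21. Of 9 kinase genes 8 were tested, with 0 called in either ploidy by edgeR, DESeq2 or limma-voom and 0 at an unadjusted p under 0.05. csnk2a1 and csnk2b, which encode subunits of casein kinase 2, a kinase of acidic serine sites, had log2 changes of -0.13 ± 0.16 and -0.08 ± 0.13 in diploids.

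Estrogen-responsive genes, with vtg1 at their head, rose in diploids. All 16 listed genes were tested, and in diploids 10 rose and 0 fell, against 1.94% of all genes higher and 0.422% lower, with a list median log2 change of 3.17. In triploids 3 rose and 0 fell, against 0.0609% higher and 0.0435% lower, with a median of 1.58. The list was drawn up with earlier results of these data known, so its direction is not independent evidence. vtg1 rose by 8.65 ± 1.28 in diploids (adjusted p of 0.00312) and by 7.61 ± 1.30 in triploids (adjusted p of 0.0493) on the log2 scale, in edgeR's quasi-likelihood test. The F13A1 gene ENSDARG00000045453 rose by 7.62 ± 0.56 in diploids (adjusted p of 3.51e-05) and by 5.37 ± 0.53 in triploids (adjusted p of 0.00169).

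The second F13A1 gene, ENSDARG00000094832, passed the same test in both ploidies but held few read pairs in controls, so its fold is not given. It averaged 5.27 ± 3.14 CPM in diploid EE2 testes and 0.119 ± 0.158 CPM in diploid control testes (SD, n = 4 each). Both genes carry the F13A1 symbol, and how read pairs common to both would have been split was not tested. nr0b1 (Dax1), a nuclear receptor that restrains steroid synthesis, rose by 1.75 ± 0.22 in diploids (adjusted p of 0.000877), and its triploid value was 1.28 ± 0.24 (adjusted p of 0.0602). vtg2 rose by 6.50 ± 1.31 in diploids (adjusted p of 0.0194) and had 5.21 ± 1.37 in triploids (adjusted p of 0.401).

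These counts changed when single libraries were left out, which also leaves fewer libraries in a group. Over all genes the calls numbered 254 to 656 in diploids and 2 to 15 in triploids after omissions. Whether the changes came from the library left out or from the smaller group was not tested. In diploids the count of 10 was 5 without diploid control replicate 1, 2 or 3, also 5 in limma-voom, and 6 with diploid libraries only. The diploid calls of vtg2 and vtg5 were lost without diploid control replicate 1, 2 or 3 and in limma-voom. That of vtg2 was also lost with diploid libraries only. Those of vtg4, vtg6 and vtg7 were lost in 5 or 6 of the 8 omissions. The diploid calls of vtg1, both F13A1 genes, nr0b1 and pgr, the progesterone receptor gene, held in all 8. In triploids the count was 1 of 16 after each omission and in limma-voom, and the calls of vtg1 and of the second F13A1 gene were each lost in all 7 omissions. The triploid minus diploid difference was below 0 for all 16 genes, as it was for stm. The list median was -0.91, against 0.01 over all genes, and edgeR called 0 of the 16. Of the 16, 3 had an unadjusted p under 0.05, against 1223 of all 23007 genes. stm and the list were chosen with earlier results of these data known, so their shared direction is a description only.

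**Figure D5:**
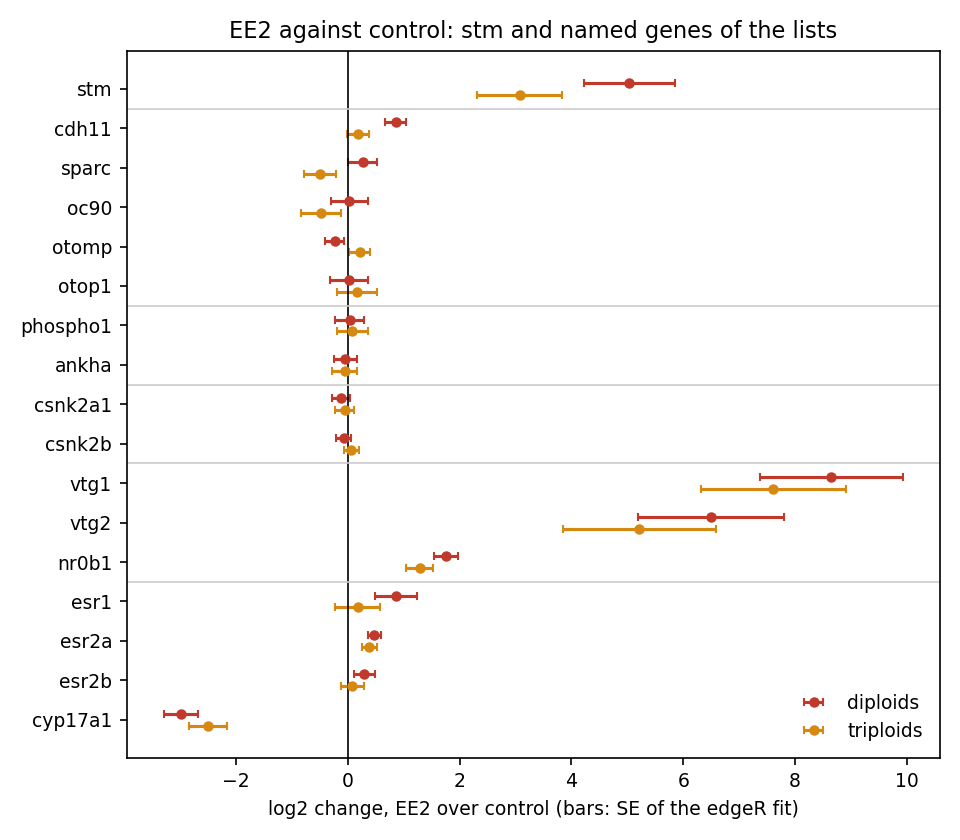
Log2 change of EE2 over control, with SE bars from the edgeR fit, for stm and the named genes of the otolith, mineralised tissue, kinase, estrogen-responsive and estrogen receptor lists and cyp17a1, from top to bottom. Red is diploids and orange is triploids. stm (5.04 and 3.07) lies below vtg1 and vtg2, above nr0b1, and above the named otolith and mineral genes. stm and the lists were chosen with earlier results of these data known.

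The estrogen receptors themselves were present at modest levels. Of 11 listed genes of estrogen receptors and estrogen metabolism 10 were tested, and edgeR called 0 in diploids and 0 in triploids. Over all genes it called 1.94% higher and 0.422% lower in diploids, and 0.0609% and 0.0435% in triploids. Of the 10, 2 had an unadjusted p under 0.05 in diploids and 1 in triploids. DESeq2 and limma-voom each called 1 higher in diploids and 0 in triploids. Over all 23007 genes, in either direction, DESeq2 called 1207 in diploids and 99 in triploids, and limma-voom called 584 and 10. esr1 averaged 4.90 ± 1.31 CPM in diploid EE2 testes and 2.70 ± 1.01 CPM in diploid control testes (SD, n = 4 each). esr2a averaged 56.7 ± 4.36 CPM in diploid EE2 testes and 41.1 ± 5.89 CPM in diploid control testes, with an adjusted p of 0.0622 in edgeR's test. esr2b averaged 49.5 ± 8.95 CPM in diploid EE2 testes and 40.3 ± 10.8 CPM in diploid control testes. Per length, esr2a (17.4 RPKM in diploid EE2) and esr2b (14.5 RPKM) exceeded esr1 (1.34 RPKM).

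Marker lists of other cell types were summed beside stm. Of 11 hair cell genes, markers of the ear cells that sense sound and balance, atoh1a was at 0 in all libraries, and the sums were 134.3 to 184.1 CPM in diploid EE2 and 117.7 to 161.8 CPM in diploid control testes. Of its 8 tested genes 1 rose in diploids, against 1.94% of all genes. Only 2 of the 8 had a log2 change above 0 there, and the list median was -0.17. The gene that rose was the myosin gene myo7aa, by 0.81 ± 0.18 (adjusted p of 0.028 in edgeR's test). That call was lost in 5 of 8 omissions (adjusted p up to 0.0997), with the library titled an outlier included and with diploid libraries only. Liver markers summed to 92.34 to 842.6 CPM in diploid EE2 and 89.57 to 648.6 CPM in diploid control testes, and to 148.7 to 1103 CPM in triploid EE2 and 200.4 to 575.7 CPM in triploid control testes. None of the 16 liver genes was called by edgeR in either ploidy or had an unadjusted p under 0.05. Over all genes edgeR called 1.94% higher and 0.422% lower in diploids, and 0.0609% and 0.0435% in triploids.

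High stm and high liver markers fell in the same libraries in some cases and not in others. The highest liver sums of the fitted libraries were 1103 CPM in triploid EE2 replicate 4 and 842.6 CPM in diploid EE2 replicate 3. Their stm was 107 and 222 CPM. Diploid EE2 replicate 4 was the lowest of its group in both, with 130 CPM of stm and liver markers at 92.34 CPM. Diploid control replicate 4 had 1.78 CPM of stm with liver markers at 648.6 CPM. Diploid control replicate 3, with 17.9 CPM of stm, had liver markers at 105.1 CPM and erythrocyte markers at 31.52 CPM. Osteoblast markers summed to 25.35 to 42.4 CPM in diploid EE2 and 22.31 to 35.17 CPM in diploid control testes, with 0 of 5 tested genes called by edgeR and 1 at an unadjusted p under 0.05. Oocyte markers summed to 19.39 to 38.51 CPM in diploid EE2 and 25.8 to 35.39 CPM in diploid control testes, again with 0 of 5 called by edgeR and 1 at an unadjusted p under 0.05. These counts are for diploids, where edgeR called 1.94% of all genes higher and 0.422% lower.

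Markers of some testis cells did move with EE2. Smooth muscle and peritubular markers summed to 1581 to 2065 CPM in diploid EE2 and 494.2 to 826.2 CPM in diploid control testes, and 5 of 7 rose in diploids, against 1.94% of all genes: acta2, myh11a, tagln, cnn1b and tpm2. In triploids their sums were 725.7 to 863.8 CPM under EE2 and 389 to 491.3 CPM in controls. There edgeR called 0 of 7, against 0.0609% of all genes higher and 0.0435% lower. Of the 7, 6 had an unadjusted p under 0.05, and the share of all genes at that threshold was not counted. Leydig cell markers, of the cells that make androgens, summed to 197.7 to 596.4 CPM in diploid EE2 and 1043 to 3686 CPM in diploid control testes, and 7 of 10 fell in diploids and 3 of 10 in triploids, against 0.422% and 0.0435% of all genes. All 3 triploid calls, CYP11A1 ENSDARG00000092696, cyp17a1 and hsd3b1, were lost without triploid EE2 replicate 1. That of CYP11A1 ENSDARG00000092696 was lost in all 7 omissions, in limma-voom and with a replicate block, and that of hsd3b1 in 4 of 7 omissions. In diploids the call of cyp11c1 was lost in 6 of 8 omissions and that of nr5a1a in 5 of 8. cyp17a1, an enzyme gene of androgen synthesis, fell to 43.0 ± 16.9 CPM in diploid EE2 testes, against 341 ± 71.7 CPM in diploid control testes (SD, n = 4 each), a log2 change of -2.99 ± 0.31 (adjusted p of 0.000363 in edgeR's test). In triploids its log2 change was -2.50 ± 0.34 (adjusted p of 0.0165), a call also lost without triploid EE2 replicate 3, without triploid control replicate 1 and with triploid libraries only (adjusted p up to 0.129 over the omissions).

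Erythrocyte markers summed to 53.91 to 845.5 CPM in diploid EE2 and 31.52 to 45.71 CPM in diploid control testes. The highest library was diploid EE2 replicate 1, and the other diploid EE2 libraries, at 53.91 to 76.32 CPM, also lay above every diploid control. All 6 genes had an unadjusted p under 0.05 in diploids, but only 5 had a log2 change above 0. The share of all genes at that threshold was not counted, so such counts in this paragraph only describe each list. Their diploid log2 changes ran from -1.09 to 4.47, with a median of 2.54. In triploids 0 of 6 had an unadjusted p under 0.05, and the median was 0.29. Only hbaa1, a hemoglobin gene, passed the adjusted test, in diploids, which is 1 of 6 against 1.94% of all genes called higher. That call was lost without any 1 of the 4 diploid controls and in limma-voom (adjusted p up to 0.122 over the omissions). Of 9 germ cell markers 1, spata18, rose in diploids, against 1.94% of all genes. In diploids 3 of the 9 had a log2 change above 0, the median was -0.23 and 4 had an unadjusted p under 0.05. In triploids 0 were called, 3 of the 9 were above 0, the median was -0.16 and 3 had an unadjusted p under 0.05. Germ cell sums in triploids were 5750 to 6149 CPM under EE2 and 6597 to 6940 CPM in controls. In diploids they were 4699 to 6327 CPM and 5825 to 6856 CPM. Sertoli (8 tested), skeletal muscle (8) and exocrine pancreas (7) lists had 0 genes called by edgeR in either ploidy, with 4, 1 and 0 genes at an unadjusted p under 0.05 in diploids and 1, 4 and 0 in triploids. Over all genes edgeR called 1.94% higher and 0.422% lower in diploids, and 0.0609% and 0.0435% in triploids. The marker genes named here beyond the fixed rule were picked after their values were seen. The part of these cell types in the stm values was not tested, and in whole testes a change in the number of cells of a type and a change in RNA per cell cannot be told apart.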

How the data were processed

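Ribosomal RNA was depleted and strand-specific libraries were made from male gonads, per the labels' protocols. The submitters' processing notes name STAR, featureCounts and GRCz11. The deposited table holds raw counts of read pairs per gene, made with featureCounts 2.0.6 and Ensembl 113, and each gene's exon length, per the file headers. From these counts, 15 libraries of 4 groups were fitted together in edgeR 4.0.16 (R 4.3.3; filterByExpr, TMM, robust quasi-likelihood F test), with Benjamini-Hochberg adjustment over 23007 genes and calls at an adjusted p under 0.05. The median biological coefficient of variation was 20.4%. SE was the log2 change divided by the square root of F. Intervals are at 95%: Poisson for counts, and for log2 changes normal from the SE, unadjusted. Log2 CPM for the pattern ranking used a prior count of 2.

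stm and the 16 gene lists were chosen with earlier results of these data known. The lists hold 181 symbols, of which 167 matched the table. Named genes were stm, the 8 nearest in pattern, the 3 nearest on each side, the called members of the first 5 lists (up to 4 per comparison, by p, and otherwise the 2 most abundant), and 10 fixed genes. The overlapping gene zgc:86598, the remaining marker genes and their values lie outside that rule. No test of stm was planned. That in triploids was added and is a description only. It is not independent of the choice, since earlier results of these data were known and its SE comes from a fit shared with the diploid libraries.

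Alternatives were DESeq2 1.42.0, limma-voom (limma 3.58.1), other scalings, filter and prior, a replicate block, subsets of libraries and each omission. The fit was tested on simulated data. Sequences of stm are not used here.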

Additional observations from a re-analysis of the deposited data

Results flagged for a closer look

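In 72 groups of 4 libraries, over the named genes with at least 10 read pairs in a library, the highest or lowest library was compared with the nearest of the others. For independent values with a normal spread, chance sets apart about 1 in 20 such groups. The spread of CPM was not checked, and genes measured in the same library are not independent, so that rate is a rough guide. stm in diploid control replicate 3 stood apart at 17.9 CPM, while its fellow controls had 1.18 to 3.16 CPM.

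Diploid EE2 replicate 3 stood apart in 5 genes. It had 1222 CPM of vtg1, where its fellow libraries had 90.1 to 136.7 CPM, 300.6 CPM of vtg2, against 14.7 to 27.1 CPM, and 427.8 CPM of vtg5, against 28.4 to 42.1 CPM. It also had 187.0 CPM of the F13A1 gene ENSDARG00000045453, against 82.1 to 96.6 CPM, and 9.95 CPM of the F13A1 gene ENSDARG00000094832, against 3.42 to 4.21 CPM. stm in that library, at 222 CPM, was within the range of its group.

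Diploid control replicate 1 stood apart in 3 genes: hsf1 at 67.4 CPM, where its fellow controls had 120.5 to 129.8 CPM, otop1 at 2.00 CPM, against 4.06 to 4.24 CPM, and csnk2b at 248.2 CPM, against 199.5 to 205.0 CPM. esr2b in triploid control replicate 1 was 33.9 CPM, where its fellow triploid controls had 38.1 to 38.6 CPM. The library titled an outlier, triploid EE2 replicate 2, which is not in the fits reported unless named, had 31.2 CPM of stm, above the 3.16 to 20.4 CPM of the triploid controls.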

How the results depend on the processing

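The log2 change of stm kept its sign in every alternative run. Leaving out single libraries gave 4.65 to 6.68 in diploids, 2.78 to 3.68 in triploids, -1.42 to -0.84 for triploid against diploid under EE2, 0.17 to 2.42 among controls and -3.62 to -1.36 for the difference of the changes. The highest of the diploid and control values and the lowest difference came without diploid control replicate 3; other alternatives moved stm by less than the spread between libraries.

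Counts of called genes moved more. In diploids the 543 calls (446 higher, 97 lower) became 257 with the library titled an outlier, 193 with diploid libraries only, 1207 in DESeq2 and 254 to 656 after omissions. In triploids the 24 calls became 38 with that library, 99 in DESeq2, 10 in limma-voom and 2 to 15 after omissions. Differences of the changes numbered 43 in DESeq2, 1 without diploid control and EE2 replicates 1, and 0 to 5 after omissions. The cause was not tested.

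Same-numbered EE2 and control libraries of the same ploidy correlated at -0.17 to 0.10 in their deviations from the group means. With so few libraries per group this cannot settle whether the numbers pair them, and the main fit has no block. With the replicate block stm changed by 5.39 in diploids and 2.78 in triploids, and 407 and 4 genes were called. The triploid adjusted p of stm was then 0.703 in edgeR's quasi-likelihood test, and its difference of the changes was -2.61 ± 1.18. Control libraries held as few as 15 stm read pairs, so low control levels are set by counting error as well.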
